A study of Mus musculus with 4 samples.

Results

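Mucin genes were examined in lung tumours of KP mice, a model of lung adenocarcinoma, by taking every row of the deposited count table whose symbol was Muc1, Muc2, Muc4, Muc5ac, Muc5b, Muc6, Muc13, Muc15, Muc16 or Muc20. These 10 symbols matched 12 of the 39017 rows, because Muc2 had 3 rows. The series given here holds 1 group, labelled Control, with 4 male tumours of C57BL/6 background and 1 library each, so no groups were compared and the levels and their spread between tumours are the result. The mice carried p53 Fl/Fl, were infected through the trachea with 1500 units of a lentivirus that expresses Cre from the PGK promoter, which is active in most cell types, and were killed 22 weeks and 5 days later. The labels add a heterozygous floxed allele without naming its gene, whereas the headers of the deposited log2 table call the same tumours WT. Tumours were macrodissected and dissociated. The study's methods describe bead removal of CD45+ immune cells for PGK-Cre tumours and bulk RNA for tumours called bulk Lenti, whereas the labels of these lenti.PGK-Cre tumours name no sorting step. The labels give no animal numbers, and p-values therefore measure only the spread between these 4 libraries.

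Mucins are large glycoproteins whose stretches rich in serine, threonine and proline are covered with O-linked sugars. Muc2, Muc5ac, Muc5b and Muc6 are secreted and link into gels: Muc5b and Muc5ac are the main gel-forming mucins of the airway, Muc2 that of the intestine, and Muc6 that of gastric glands. Muc1, Muc4, Muc13, Muc15, Muc16 and Muc20 are anchored in the cell membrane, where they coat the apical surface of epithelia and several of them signal through a cytoplasmic tail. In normal lung, airway club and goblet cells make gel-forming mucins, and Muc1 is present on alveolar type 2 cells as well as in the airway.

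Total counts per tumour lay between 8151613 and 8799007, and a level is given below as CPM, counts per 1000000 after TMM scaling of the library. At this depth 3 counts, taken as the 95% upper limit for an observed count of 0, corresponded to 0.330 to 0.370 CPM. The alveolar type 2 markers (Sftpc, Sftpb, Lamp3, Abca3, Slc34a2 and Napsa) summed to 29424 CPM in tumour 1 and to between 41862 and 49268 CPM in the others, and none of the 6 was at 0. The sums of the other marker lists over tumours ranged from 1036 to 1836 CPM for alveolar type 1, from 2488 to 3972 CPM for pan-epithelial, from 166 to 215 CPM for endothelial, from 182 to 348 CPM for fibroblast and from 87.6 to 206 CPM for pan-leukocyte markers.

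The promoter windows of 4 members are shown because these genes contrasted in their RNA levels: Muc1 was the highest mucin in each tumour, Muc4 and Muc20 are neighbours whose levels diverged, and Muc13 was found almost entirely in 1 tumour. The windows are from RefSeq on GRCm38.p6, the build of the authors' alignment, and run from 250 bases before to 50 bases after the annotated start, 5′ to 3′ on the gene's strand. They lie at chr3:89228806-89229105 (plus strand), chr16:32735636-32735935 (plus), chr16:32797386-32797685 (minus) and chr16:33794239-33794538 (plus). Muc13 has a second window at chr16:33793787-33794086 (plus), which held none of the motifs and is not shown. That second window is the one around the Muc13 start in GENCODE M21, base 33794037. The Muc13 window shown lies within the gene as annotated there. Capitals mark matches to the 4 motifs searched on both strands, which were the TATA box with the letters TATAAA, the GC box with the letters GGGCGG, the forkhead motif with the letters TGTTTAC and the NK2 factor motif with the letters TCAAGTG. The motifs were chosen after the sequences were seen.
Muc1: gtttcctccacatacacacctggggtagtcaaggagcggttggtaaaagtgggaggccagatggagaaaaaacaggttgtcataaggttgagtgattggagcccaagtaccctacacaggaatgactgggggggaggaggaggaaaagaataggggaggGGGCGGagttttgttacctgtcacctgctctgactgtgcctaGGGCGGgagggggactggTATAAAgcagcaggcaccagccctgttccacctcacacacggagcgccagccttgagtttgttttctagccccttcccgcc
Muc4: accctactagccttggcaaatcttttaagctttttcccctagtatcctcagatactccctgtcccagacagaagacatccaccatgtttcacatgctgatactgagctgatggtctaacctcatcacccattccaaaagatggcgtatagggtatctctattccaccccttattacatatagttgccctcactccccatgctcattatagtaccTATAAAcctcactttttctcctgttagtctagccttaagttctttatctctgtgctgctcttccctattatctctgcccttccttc
Muc20: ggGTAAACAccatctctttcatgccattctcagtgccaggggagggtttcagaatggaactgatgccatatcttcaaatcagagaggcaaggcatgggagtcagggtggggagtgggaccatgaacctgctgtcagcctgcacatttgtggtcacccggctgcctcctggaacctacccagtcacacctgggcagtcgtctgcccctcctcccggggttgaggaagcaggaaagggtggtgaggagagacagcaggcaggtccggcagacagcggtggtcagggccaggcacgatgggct
Muc13: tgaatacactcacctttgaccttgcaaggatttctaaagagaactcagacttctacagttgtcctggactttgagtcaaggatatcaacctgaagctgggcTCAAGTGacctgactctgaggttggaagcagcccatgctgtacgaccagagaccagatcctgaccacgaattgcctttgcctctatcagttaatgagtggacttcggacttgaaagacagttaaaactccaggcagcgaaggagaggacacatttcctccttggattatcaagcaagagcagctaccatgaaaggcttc
The Muc1 window held TATAAA at position 220, counted from its first base, and GGGCGG at positions 160 and 202. The Muc4 window held TATAAA at position 215, that of Muc20 held the forkhead letters on the opposite strand at position 3, and that of Muc13 held TCAAGTG at position 102. Of the 32851 windows in the table, 13.6% hold the TATA box, 35.7% the GC box, 3.65% the forkhead motif and 3.06% the NK2 motif, on either strand. Windows were found for 7 of the 10 genes, and a TATA box in those of 3 genes, Muc1, Muc2 and Muc4. A match describes the letters only.

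The sequence feature that defines mucins was seen in most of the coding sequences. Serine, threonine and proline made up 44.1% of the codons of Muc1, 44.8% of Muc4, 43.5% of Muc20, 41.1% of Muc6, 38.0% of Muc13, 34.1% of Muc15, 33.8% of Muc5b and 31.2% of Muc5ac, against a median of 18.7% over 21625 protein-coding genes in GENCODE M21. The Muc2 model used stood apart at 16.8%, and with 887 codons it covers only part of a locus that the annotation tags as fragmented. Muc16 was not placed, since its identifier in the count table is not in that annotation. Repeats of a near-identical unit were found by a self-alignment of the coding sequences of Muc5ac and Muc13, and their units are shown because a read that fits several copies of a repeat may not be counted. The unit of Muc5ac begins at base 5677 of the coding sequence and is repeated in tandem over 1197 bases at 90.2% identity between neighbouring units. That of Muc13 begins at base 28 and spans 641 bases at 92.3% identity.
Muc5ac: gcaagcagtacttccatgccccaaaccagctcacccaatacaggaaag
Muc13: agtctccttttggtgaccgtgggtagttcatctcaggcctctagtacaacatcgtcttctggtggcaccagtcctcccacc
Of all stretches of 85 bases, the read length, 20.8% occurred more than once within the Muc5ac transcript, 17.4% within Muc5b, 12.1% within Muc13, 8.23% within Muc6 and 3.05% within Muc4, and none did within Muc1, Muc2, Muc15 and Muc20. The levels of the former genes are therefore uncertain downwards if such reads were discarded, and how the authors treated them was not stated.

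Of the 10 genes, 7 averaged at least 1 CPM over tumours and entered the test of spread. Muc1 was by far the most abundant, Muc4, Muc5b and Muc20 followed as a group, and Muc5ac, Muc13 and Muc2 were scarce, both in CPM and in CPM per kilobase. Muc16 had a mean of 0.235 CPM, and Muc6 and Muc15 had 0 counts in 4 of 4 tumours. Together the 10 genes took 0.0758, 0.134, 0.0818 and 0.108% of the counts of tumours 1 to 4. The 95% Wilson intervals of these shares ran from 0.0740 to 0.0776%, from 0.132 to 0.137%, from 0.0799 to 0.0838% and from 0.106 to 0.110%. These intervals, like the limits for a count of 0, cover counting error only, since the reads carried no molecular identifiers.

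**Figure D1:**
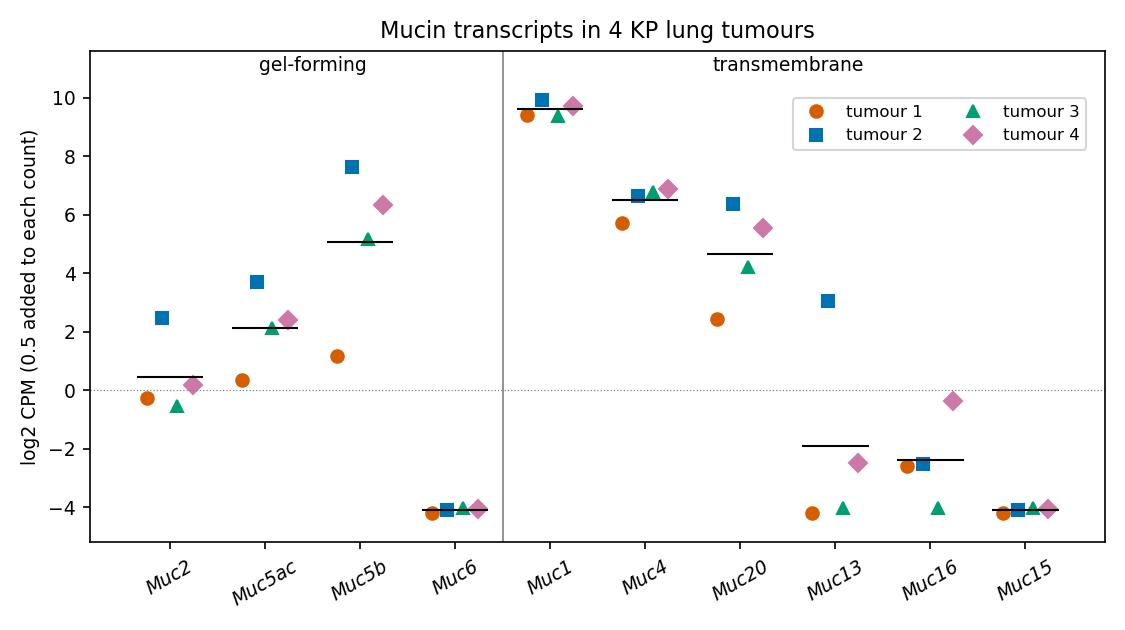
The level of each mucin gene is plotted for each of the 4 tumours as log2 CPM, with gel-forming genes on the left and transmembrane genes on the right and a bar at the mean over tumours. Muc1 lies near the same height in every tumour (655 to 966 CPM), whereas Muc5b runs from 2.20 to 197 CPM, and the lowest symbols of Muc6, Muc13, Muc15 and Muc16 stand for a count of 0.

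Among the transmembrane mucins, Muc1 (ENSMUSG00000042784, chr3:89229057-89233381, plus strand, 7 exon blocks) is the classic epithelial surface mucin, overproduced in many adenocarcinomas. Tumours 1 to 4 had 672, 966, 655 and 837 CPM (mean 783 ± 147, SD, n = 4). The highest value was 1.48 times the lowest, and Muc1 ranked 92nd by mean CPM among the 14225 genes tested. Its share of the summed CPM of the 10 mucins in tumours 1 to 4 was 91.6, 70.5, 79.6 and 76.9%. The SD of its log2 CPM was 0.27, close to the median of 0.29 over all genes tested.

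Muc4 (ENSMUSG00000079620, chr16:32735886-32782391, plus strand) encodes a long membrane mucin that binds the receptor ErbB2. Tumours 1 to 4 had 51.8, 98.4, 108 and 117 CPM (mean 94.0 ± 29.2, SD, n = 4). Tumour 1 was lowest, and the other 3 tumours lay close together. The SD of log2 CPM was 0.54 and dropped to 0.13 without tumour 1.

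Muc20 (ENSMUSG00000035638, chr16:32777419-32797435, minus strand) encodes a shorter membrane mucin that binds the receptor Met. Tumours 1 to 4 had 5.39, 82.6, 18.6 and 46.4 CPM (mean 38.3 ± 34.1, SD, n = 4). The mean was 23.6 CPM without tumour 2. The highest value was 15.3 times the lowest, so that Muc20 varied far more than the gene next to it. The ratio of Muc4 to Muc20 CPM, which is not corrected for length and serves to compare tumours, was 9.61, 1.19, 5.81 and 2.53 in tumours 1 to 4. Both genes are transcribed towards each other and overlap over 4973 bases, of which 627 are exonic in both, 5.33% of the exon bases of Muc4 and 15.6% of those of Muc20. The strand setting of the counting was not stated, and reads from the shared exons cannot be assigned without it.

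**Figure D2:**
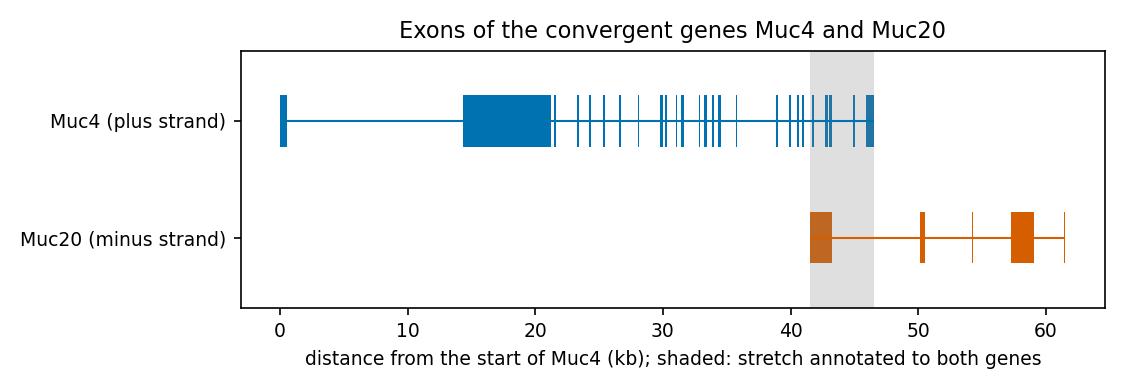
The exon blocks of Muc4 (plus strand, top) and Muc20 (minus strand, bottom) are drawn to scale against the distance in kb from the start of Muc4, with the stretch annotated to both genes shaded. The large last exon block of Muc20 lies within the shaded stretch and crosses several small exons of Muc4, 627 exonic bases in all.

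Muc13 (ENSMUSG00000022824, chr16:33794037-33819934, plus strand) encodes a membrane mucin typical of intestinal epithelium. It had 71 counts in tumour 2 (8.25 CPM), 1 count in tumour 4 and 0 counts in tumours 1 and 3. With 3 counts taken for the count of 0, the observed level in tumour 2 was at least 24.98-fold that of tumour 1. Against tumour 3, taken in the same way, it was at least 22.3-fold. Neither ratio covers the counting error of the 71 counts in tumour 2. Against the single count of tumour 4 the ratio was 69.3 (95% exact interval 12.1 to 2777). An antisense gene without a count in any tumour, Gm15657, overlaps 184 of its exon bases.

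Muc16, the source of the serum antigen CA125 and a mucin of mesothelium and airway surface, had 1, 1, 0 and 6 counts in tumours 1 to 4. Only tumour 4 exceeded 3 counts. Muc16 lay below the level needed for the test of spread, and was called when no filter on low counts was used. Of 4 mesothelial markers taken for comparison, 1 (Upk3b) had a mean CPM of at least 1, and it ranged from 0.864 to 2.90 CPM. Muc15 (chr2:110721340-110739527) was without a count, which allows up to 0.330 to 0.370 CPM per tumour.

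Among the gel-forming mucins, which lie side by side on chromosome 7, Muc5b dominated. Muc5b (ENSMUSG00000066108, chr7:141839070-141873084, plus strand) encodes the mucin that airway clearance depends on. Tumours 1 to 4 had 2.20, 197, 36.0 and 80.8 CPM (mean 78.9 ± 84.8, SD, n = 4), from 20, 1693, 292 and 679 counts. The mean was 39.9 CPM without tumour 2. The 4 values were spread widely, and the highest value was 89.4 times the lowest. The SD of log2 CPM was 2.79, rank 80 among the 14225 genes, and 1.22 without tumour 1.

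Muc5ac (ENSMUSG00000037974, chr7:141788972-141819231, plus strand) encodes the mucin of airway goblet cells and of the gastric surface. Tumours 1 to 4 had 1.21, 12.8, 4.32 and 5.23 CPM (mean 5.89 ± 4.91, SD, n = 4). The order of the tumours was that of Muc5b, with a 10.6-fold range, and the mean was 3.61 CPM without tumour 2. Muc5b CPM was 1.82 times that of Muc5ac in tumour 1 and 15.4, 8.34 and 15.4 times in tumours 2 to 4, without correction for length.

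Muc2 (ENSMUSG00000025515, chr7:141690340-141754693, plus strand) had 7, 47, 5 and 9 counts in tumours 1 to 4, or 0.770, 5.46, 0.617 and 1.07 CPM. Tumour 2 stood above the other 3, which lay within a narrow range. The remaining 2 rows with this symbol held at most 2 counts in any tumour and are not in the annotation. Summing the 3 rows, an alternative chosen after seeing the data, gave a mean of 2.10 CPM in place of 1.98, and the mean of the main row was 0.825 CPM without tumour 2. Muc6 (chr7:141633456-141655319, minus strand) was without a count, with the same limit as Muc15.

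Summed over their genes, the gel-forming mucins reached 4.18, 215, 41.0 and 87.1 CPM in tumours 1 to 4 (mean 86.8 ± 91.9, SD, n = 4), a 51.4-fold range. The mean was 44.4 CPM without tumour 2. The transmembrane mucins reached 730, 1156, 782 and 1001 CPM (mean 917 ± 198, SD, n = 4), a 1.58-fold range carried by Muc1. Without Muc1 they reached 57.3, 189, 127 and 165 CPM. The gel-forming genes thus made up 0.570% of the mucin sum in tumour 1 and 15.7, 4.98 and 7.999% in tumours 2 to 4.

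Spread beyond counting noise was tested for each gene by a chi-square test of its 4 counts against the library sizes, adjusted over 14225 genes. All 7 mucins tested were called, where 76.7% of all genes were called. Muc13 and Muc2 passed the level of 1 CPM only through tumour 2, so their call follows in part from the filter, and the counts and medians over the 7 genes are given as a description. With an extra spread of 10% allowed between tumours in edgeR, 7 of 7 were called again, against 37.6% of all genes. In that test Muc1 had an adjusted p of 0.0446 and Muc4 of 3.99e-06, whereas Muc20 had 1.50e-47 and Muc5b 1.08e-96. The SD of log2 CPM exceeded 1 in 5 of 7 mucins (Muc2, Muc5ac, Muc5b, Muc13 and Muc20) and in 6.16% of all genes, and the median SD was 1.38 over the 7 mucins and 0.29 over all genes.

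**Figure D3:**
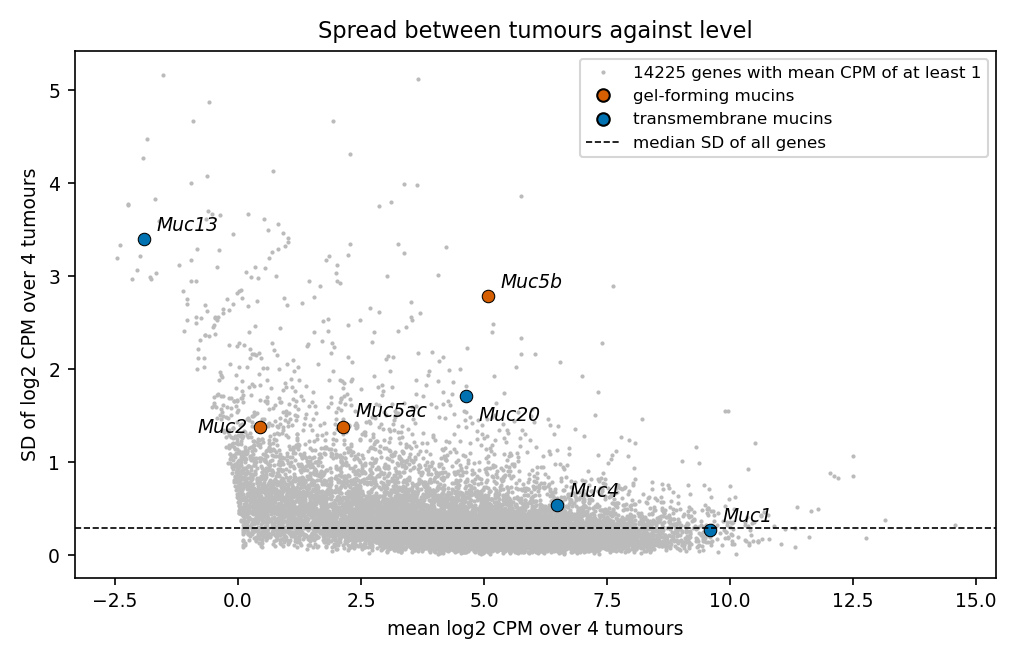
Each grey point is 1 of 14225 genes, with the mean of log2 CPM over the 4 tumours on the horizontal axis and its SD on the vertical axis. The 7 mucins tested are coloured by class. Muc1 sits on the dashed line of the median SD (0.29), whereas Muc5b and Muc20 lie above most genes of like level, with SDs of 2.79 and 1.71.

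Tumour 2 held the highest level of 6 of 7 mucins tested, Muc4 being the exception, where 20.4% of all genes were highest in that tumour. Since Muc2 and Muc13 entered the test only through tumour 2, their place in this count was set by the filter, and of the other 5 mucins tested 4 were highest there. Muc5b, Muc5ac and Muc20 followed the same order, tumour 2 above tumour 4, tumour 3 and tumour 1, an order found in 3.86% of all genes. The order was taken from the mucin values themselves, so this share is a description and no test. Markers of club cells, the secretory cells of the airway, moved in part with Muc5b, Muc5ac and Muc20. The summed level of Scgb1a1, Scgb3a1, Scgb3a2, Cyp2f2 and Cldn10 was 42.0, 609, 883 and 528 CPM in tumours 1 to 4. None of the 5 was at 0, 3 of 5 were lowest in tumour 1, and 2 of 5, Scgb3a1 and Scgb3a2, were highest in tumour 2. Scgb1a1 and Cyp2f2 were highest in tumour 3, at 736 and 127 CPM. Cldn10 was highest in tumour 1 (1.54 CPM) and lowest in tumour 2 (0.813 CPM), and Scgb3a1 was lowest in tumour 3. The ciliated markers summed to 19.6, 18.6, 39.5 and 34.7 CPM in tumours 1 to 4. The part of club cells in the mucin levels was not tested, and in bulk samples fewer cells of a type and less RNA per cell cannot be told apart.

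Levels of different genes are best compared per kilobase of exon, since CPM also grows with length. On this scale Muc1 had a mean of 334 CPM per kb, followed by Muc20 with 9.50, Muc4 with 7.99, Muc5b with 5.27, Muc13 with 0.688, Muc5ac with 0.547 and Muc2 with 0.278. Muc1 exceeded Muc20 in 4 of 4 tumours, by 5.73 ± 1.48 (SD, n = 4) on the log2 scale. Muc20 and Muc4 did not differ beyond their spread (-0.30 ± 1.32, SD, n = 4, Muc20 minus Muc4), with Muc20 higher in tumours 2 and 4. Muc4 and Muc5b did not either (1.76 ± 2.33, SD, n = 4), with Muc5b higher in tumour 2. Muc13 had at most 1 count in tumours 1, 3 and 4, so no mean difference from its neighbours is given. In tumour 2 it lay below Muc5b by 2.27 on the log2 scale and above Muc5ac by 1.20. Muc5ac exceeded Muc2 in 4 of 4 tumours by 1.09 ± 0.94 (SD, n = 4), but by only 0.02 in tumour 1, from 11 and 7 counts. Neighbours were picked by their measured means, so these differences were not tested. The exon length of Muc2 is that of a fragmented locus, and its effect on the level per kilobase was not tested.

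For the 3 mucins with the largest SD, the genes most alike over the 4 tumours were found by the root-mean-square difference of log2 CPM centred on each gene's mean. For Muc13 these were Trim31 (difference 0.04), Fcgbp (0.23) and the processed pseudogene Gm10068 (0.38). Like Muc13, these genes reached a mean CPM of 1 only through tumour 2. With at most 1 count of Muc13 in each of the other tumours, its log2 values there are set largely by the 0.5 added to each count. Trim31 had 76 counts in tumour 2 and at most 1 in the others. Fcgbp, a large mucus protein of goblet cells that binds to Muc2, had 0.220, 62.7, 0.370 and 1.19 CPM in tumours 1 to 4. For Muc5b they were Bpifb5 (0.47), Ddo (0.62) and Dlk1 (0.72), and for Muc20 they were 1700049E15Rik (0.29), Ppp1r14d (0.32) and Ptprz1 (0.38). Bpifb5 had 0, 20, 7 and 18 counts in tumours 1 to 4, and Ddo had 1, 54, 7 and 17. With at most 1 count in tumour 1, their log2 values there depend strongly on the 0.5 added to each count. Dlk1 was the most abundant of the genes nearest to Muc5b and Muc20, with 20.8, 973, 211 and 186 CPM in tumours 1 to 4. With 4 tumours, likeness of this kind is a description of these libraries.

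Genes that accompany mucins in goblet and gastric mucous cells were examined as a list of 20, of which 15 reached a mean CPM of 1, 15 were called for spread, against 76.7% of all genes, and 8 were highest in tumour 2, against 20.4%. Tff3, Fcgbp and Agr2 reached a mean CPM of 1 only through tumour 2. Their place among the genes highest there was set by the filter, so these counts are given as a description. Tff3, the trefoil peptide secreted with intestinal mucin, had 632 counts in tumour 2 (73.4 CPM), 6 in tumour 3 and 0 in tumours 1 and 4. Bpifa1, a secreted airway defence protein, had 9.68, 435, 27.5 and 71.5 CPM in tumours 1 to 4, the tumour order of Muc5b. Agr2, the disulphide isomerase needed for Muc2 folding and named here after its values were seen, had 0.440, 30.3, 0.494 and 1.55 CPM. The gastric genes were split. Gkn1 was highest in tumour 1 (39.7 CPM, against 6.62, 0.123 and 3.45), as was Ctse (319 CPM, against 129, 82.8 and 131). Tff1 was also highest in tumour 1 (29.0 CPM, against 5.23, 1.85 and 19.9). Of the rest of the list, Clca1, Capn8 and Pigr were highest in tumour 3 and Cftr in tumour 4. Tff1 and these genes were named after their values were seen. Gkn2 was abundant throughout and highest in tumour 2, at 851, 1197, 681 and 553 CPM in tumours 1 to 4, and Gkn3, named after its values were seen, had 3.30, 11.7, 3.83 and 4.52 CPM.

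**Figure D4:**
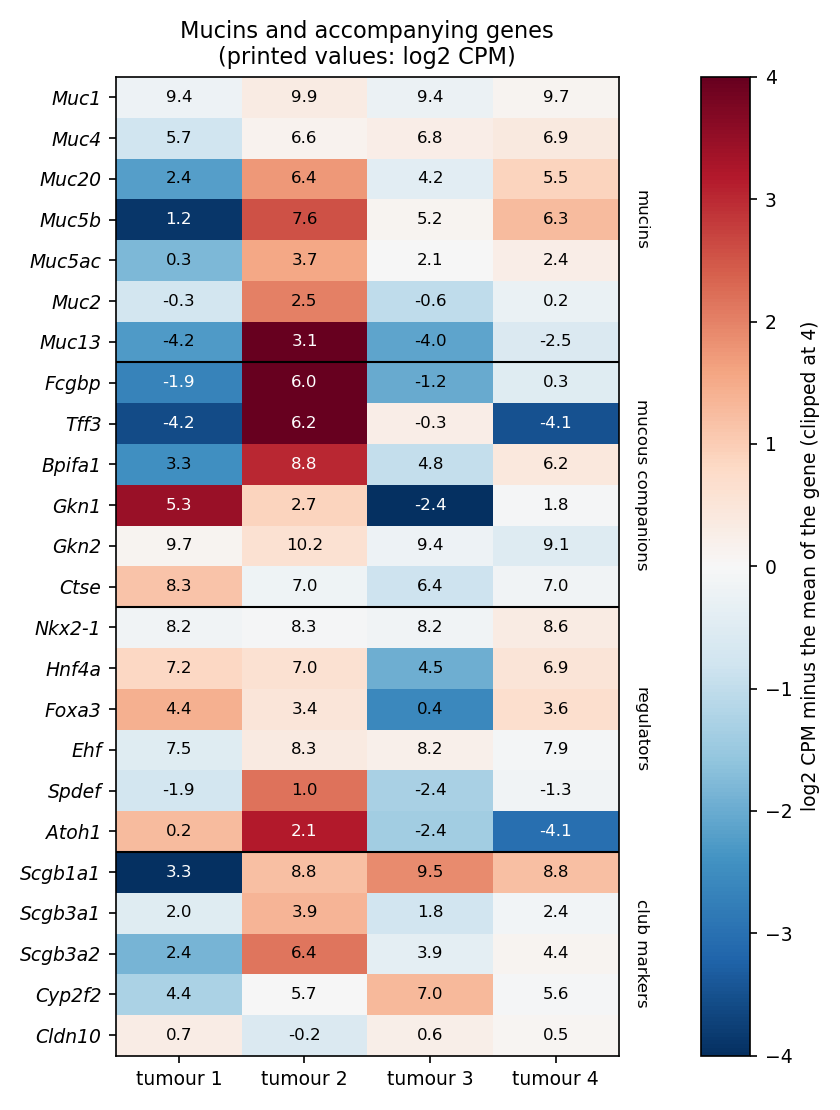
Rows are the 7 mucins tested, mucous companions, regulators of mucin genes and club cell markers, and columns are the 4 tumours. Printed values are log2 CPM and colours show the difference from the mean of the gene. Muc13, Muc2, Fcgbp, Tff3 and Bpifa1 are red in tumour 2, Muc5b, Muc20 and Scgb1a1 are blue in tumour 1, and Hnf4a and Foxa3 are blue in tumour 3.

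Of 19 regulators of mucin genes, 16 reached a mean CPM of 1 and 15 of these were called for spread, against 76.7% of all genes. Nkx2-1, the lung lineage factor, was high and even, at 290, 306, 291 and 396 CPM in tumours 1 to 4. Hnf4a, a factor of gut and liver epithelium, had 152, 130, 22.3 and 123 CPM, and Foxa3, a forkhead factor of goblet cells, had 20.8, 10.7, 1.23 and 12.3 CPM, both lowest in tumour 3. Spdef, the factor that drives goblet cell differentiation, had 2, 17, 1 and 3 counts, a mean of 0.669 CPM, and Atoh1 had 10, 37, 1 and 0 counts. Both had their highest count in tumour 2, and Atoh1 reached a mean CPM of 1 only through that tumour. Ehf, an epithelial Ets factor, had 182, 324, 293 and 238 CPM, and Il4ra, the receptor chain through which interleukin 13 induces airway mucus, ranged from 161 to 215 CPM.

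Many of the enzymes that build mucin sugars were detected. Of 18 genes for transferases that place the first sugar on serine or threonine, 12 reached a mean CPM of 1 and 12 were called, against 76.7% of all genes. Galntl5 was without a count. Galnt1 was the highest of them in CPM, at 244, 219, 207 and 187 CPM in tumours 1 to 4, and Galntl6 was the most variable, with 3, 32, 4 and 4 counts. Of 17 genes that extend the sugar chain, 12 reached a mean CPM of 1 and 12 were called, against the same 76.7%, and A4gnt was without a count. St3gal1, a sialyltransferase, had 232, 312, 272 and 269 CPM, and C1galt1, which makes the core 1 structure, had 57.1, 103, 76.9 and 64.5 CPM, highest in tumour 2. Gcnt1, which branches the chain, was lowest in tumour 4 (65.1 CPM, against 212, 160 and 173). B4galnt3 had 33, 8, 0 and 34 counts.

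Of 12 genes for the exocytosis of mucin granules, 11 reached a mean CPM of 1 and 9 were called, against 76.7% of all genes. Vamp8, a SNARE protein of airway mucin granules, had 286, 320, 414 and 316 CPM, and Rab27a, a small GTPase of secretory granules, had 165, 429, 331 and 287 CPM. Of 10 partners of the membrane mucins, 10 reached a mean CPM of 1 and 10 were called, against that same share. Ctnnb1, whose product binds the tail of Muc1, had 1488, 1630, 1338 and 1650 CPM, Met, the receptor bound by Muc20, had 233, 418, 333 and 346 CPM, and Erbb3 had 220, 278, 221 and 294 CPM. Msln, the ligand of Muc16, had 33.7, 15.8, 18.4 and 109 CPM, highest in tumour 4, as was the Muc16 count. Of 15 other mucins and mucin-like genes, 12 were in the table, 7 reached a mean CPM of 1 and 6 were called, again against 76.7%. In CPM they were led by Cd164 (330, 563, 490 and 485 CPM) and Podxl (354, 180, 89.4 and 137 CPM). Over the 7 lists together, 79 of 83 genes tested were called by the chi-square test, against 76.7% of all genes. The edgeR test called 57 of 83, against 37.6%. Both totals hold genes that reached a mean CPM of 1 only through tumour 2 (Tff3, Fcgbp, Agr2, Atoh1 and Galntl6). They are given as a description.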

How the data were processed

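RNA of 4 KP lung tumours was sequenced with a stranded polyadenylated RNA kit from 500 ng of total RNA, as single-end reads of 85 bases. The authors trimmed reads with Cutadapt, used HISAT2 for alignment to mm10, and the submitters' processing notes name Cutadapt 1.4.2 and featureCounts 1.4.4; strand setting and annotation release are not given in the sources used here. The deposited count tables hold raw counts, and 156068 of 156068 values were equal in the combined and single tables. The authors also deposited log2 normalised counts, used here as an alternative. The methods describe TMM and voom after a filter on low genes. The deposited log2 values nevertheless include Muc6 and Muc15, which were without a count.

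Library totals were scaled by TMM factors to effective sizes (edgeR 4.0.16, R 4.3.3). CPM is the count per 1000000 of effective size, and log2 CPM adds 0.5 to the count and 1 to the size. The 14225 genes averaging 1 CPM or more were tested for spread by a chi-square test with 3 degrees of freedom and Benjamini-Hochberg adjustment, called at 0.05, which was tested on simulated counts first. The edgeR alternative was a likelihood ratio test across all genes with the dispersion fixed at 0.01. Positions and lengths are from GENCODE M21 (GRCm38), which holds 37693 of 39017 identifiers. Genes were picked for naming by a rule: the 10 mucins, 4 regulators, and the 3 nearest patterns of the 3 most variable mucins. From each list the rule took the 3 most abundant and 3 most variable genes (2 and 2 in lists under 10 genes tested). Not all genes picked are printed above. Among those left out, Galnt6 was lowest and Galnt7 highest in tumour 2, and Mmp14 was highest in tumour 1. Members, lists and motifs were chosen with earlier results of these data known. A further allele shared by the 4 tumours is not reported here.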

Additional observations from a re-analysis of the deposited data

Results flagged for a closer look

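A tumour was called apart for a result where its gap to the nearest other tumour exceeded Dixon's 95% limit for the share of the whole range over the 4 tumours, which normal noise passes in about 1 of 20 results. Of 71 results tested in this way, 4 passed, and 5.86% of all genes tested did, so the count is near what chance gives.

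The share of Muc5b in the summed gel-forming CPM was 52.6% in tumour 1 and 91.5, 88.0 and 92.8% in tumours 2 to 4, so that tumour 1 was below the others (gap ratio 0.906 on the log2 scale). It rests on 38 gel-forming counts in tumour 1, 20 of them from Muc5b. Hnf4a was lower in tumour 3 (22.3 CPM) than in the others (123 to 152 CPM), with a gap ratio of 0.889. The mean log2 CPM of the list of initiating transferases was higher in tumour 2 (4.27) than in the others (3.89 to 3.95), with a gap ratio of 0.847. Galntl6, a member of that list, was higher in tumour 2 (3.72 CPM) than in the others (0.330 to 0.494 CPM), with a gap ratio of 0.840. Galntl6 reached a mean CPM of 1 only through tumour 2 and enters the list mean, so its gap and that of the list are not separate results. The summed CPM of the genes tested in the list was 530, 584, 489 and 455 in tumours 1 to 4. No cause of these gaps was tested.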

How the results depend on the processing

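No paired analysis was possible because the 4 tumours form 1 group. With a mean CPM of at least 10 as the filter, 4 mucins (Muc1, Muc4, Muc5b and Muc20) remained for the test of spread and 4 were called in place of 7, since fewer genes were tested, against 85.3% of all genes. With no filter, 8 were called, Muc16 being added, against 53.5% of all genes. Leaving out 1 tumour, between 5 and 7 mucins were tested and called, against 62.3 to 71.9% of all genes, with 5 without tumour 2, where Muc2 and Muc13 dropped below 1 CPM. Without length correction 2 of 7 mucins kept their place in the order, Muc1 and Muc2. With coding length 7 of 7 did. With the number of 85-base stretches found once, chosen after seeing the data, 5 of 7 did, Muc2 and Muc5ac trading places. There Muc2 was divided by the stretches of a 2690-base transcript, against 7127 exon bases in the main order, so this trade cannot be read. Mean levels of the 10 mucins moved by less than 1 SD between tumours under the other scalings. Without tumour 2 the means of Muc2, Muc5ac, Muc5b, Muc13 and Muc20 moved by over 1.5 times, that of Muc13 from 2.09 to 0.0399 CPM, as did that of Muc16 without tumour 4 (0.0755 CPM). The SD of log2 CPM moved by over 1.5 times in 10 of 80 recomputations. Besides Muc4 and Muc5b, these were Muc2 (0.37 without tumour 2), Muc13 (0.94 without tumour 2), Muc5ac (0.83 without tumour 1), Muc20 (1.08 without tumour 1), and Muc6, Muc15 and Muc16, whose counts are too low for a spread to be read. Depth limits Muc6 and Muc15, without a count, and Muc2, Muc13 and Muc16, each with 5 or fewer counts in at least 1 tumour. RefSeq protein length, planned for the order, was not run.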
